A study of Mus musculus with 12 samples.

Results

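The genes described here are the clustered histone genes as they were measured in Hep3B tumors. They are the rows of the gene count table whose symbol begins with HIST1H, HIST2H, HIST3H or HIST4H, without pseudogenes and with 10 or more counts in total over the 12 libraries. Of 36292 rows in the table, 71 carried such a symbol, 1 of these was a pseudogene and 4 had under 10 counts, which left 66 genes. By the class in the symbol they were 6 H1, 17 H2A, 18 H2B, 14 H3 and 11 H4 genes. By cluster, 51 belonged to HIST1, 11 to HIST2, 3 to HIST3 and 1 to HIST4. A filter on low counts that was applied to the whole table let 61 of the 66 into the tests. The other 5, HIST1H1D, HIST1H2AI, HIST1H2AA, HIST1H2BA and HIST1H3G, are given by their levels.

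Hep3B is a human hepatocellular carcinoma cell line, and its cells were grown under the skin of female BALB/c nu/nu mice of about 8 weeks, which lack a thymus and therefore most T cells but keep other host cells. Treatment began at a mean tumor volume of about 500 mm3, with 3 mice per group. The 4 groups were given vehicle, 300 mg/kg of H3B-6527, 10 mg/kg of lenvatinib, or the combination of these doses, by oral gavage once daily, and tumors were taken 8 hours after dose 4. H3B-6527 is an inhibitor selective for the fibroblast growth factor receptor FGFR4, and lenvatinib inhibits several receptor tyrosine kinases, among them those of the VEGF and FGF families. All groups shared the cell line, the host strain and the age, and RNA came from fragments of whole tumors.

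The core histones H2A, H2B, H3 and H4 form the octamer that DNA is wrapped around, and the linker histone H1 binds where the DNA enters and leaves it. Most of their genes lie in clusters and are replication-dependent: they are transcribed mainly in S phase, and their mRNA normally ends in a stem-loop in place of a poly(A) tail. The coactivator NPAT turns the clusters on, and the stem-loop binding protein SLBP guides the processing, translation and decay of the mRNA. A smaller set of histone genes, called replication-independent here, has names such as H1F0, H2AFZ and H3F3B. Many of them give ordinary polyadenylated mRNA throughout the cell cycle.

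Library totals ran from 23.8 to 40.9 M counts (M, 1e6). The tumor with H3B-6527 numbered replicate 3, which had the smallest library, stood apart from the other 2 of its group: relative to the vehicle mean, its 61 tested histone genes had a median of −0.12 on the scale of log2(CPM + 0.5), against −1.37 and −1.05 in replicates 1 and 2. Its median for 37 S phase genes was −0.10, against −1.14 and −0.54, and its median for 10 hepatocyte markers was 0.66, against 1.38 and 1.24. The counts for H3B-6527 by class, cluster and gene list are therefore given with and without it. For single genes a call that changes without it is given for some genes only. The hepatocyte markers, among them ALB, AFP and APOA1, were abundant in every tumor, with a summed level between 47316 and 133096 CPM, where CPM is the count per M of a library total scaled by TMM, edgeR's normalization. Of the markers of other cells, leukocyte genes summed to between 147 and 212 CPM and fibroblast genes to between 26.9 and 55.9 CPM, and 3 of the 4 endothelial markers in the table had under 10 counts over all libraries, 1 of them none.

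Histone transcripts were about as abundant with lenvatinib as with vehicle and less abundant with H3B-6527 and with the combination. The 66 genes summed to 8099, 6732 and 8444 CPM with vehicle, 2805, 3514 and 6649 with H3B-6527, 8324, 8498 and 7375 with lenvatinib and 3240.5, 3282 and 4062 with the combination. Both the lenvatinib and vehicle groups lay entirely above the combination group, whereas the H3B-6527 group reached from below the combination tumors to just under the lowest vehicle tumor. As a share of all counts in a library, the 66 genes took 0.818 ± 0.092% with vehicle, 0.423 ± 0.213% with H3B-6527, 0.824 ± 0.044% with lenvatinib and 0.337 ± 0.047% with the combination (SD, n = 3). In RNA from whole tumors, fewer cells in S phase and less histone mRNA per cell cannot be told apart.

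In each of the 5 classes the group mean of the sums was lower with H3B-6527 and the combination than with vehicle or lenvatinib. For H2B the H3B-6527 and vehicle groups overlapped, with H3B-6527 replicate 3 at 2619 CPM above vehicle replicate 2 at 2491 CPM. The H1 genes summed to 406, 333 and 436 CPM with vehicle, 146, 189 and 305 with H3B-6527, 477, 491 and 432 with lenvatinib and 181, 176 and 230.2 with the combination. For H2A the sums were 2638, 2167 and 2581 CPM with vehicle, 928, 1103 and 2044 with H3B-6527, 2617, 2722 and 2369 with lenvatinib and 1068, 1085 and 1267 with the combination. H2B, the class with the most counts, stood at 2963, 2491 and 3193 CPM with vehicle, 1034, 1353 and 2619 with H3B-6527, 3076, 3092 and 2734 with lenvatinib and 1208, 1263 and 1553 with the combination. In every class the 3 combination tumors lay below all vehicle and lenvatinib tumors, and H3B-6527 replicate 3 lay above all combination tumors. The H3 sums were 1066, 910.1 and 1157 CPM with vehicle, 333, 416 and 873 with H3B-6527, 1110.1, 1111 and 955 with lenvatinib and 374, 368 and 499 with the combination. Those of H4 were 1027, 831 and 1076 CPM with vehicle, 363, 454 and 807 with H3B-6527, 1044, 1083 and 884 with lenvatinib and 408, 390.5 and 513 with the combination. The mean of the combination group was 50.0% of the vehicle mean for H1, 46.3% for H2A, 46.5% for H2B, 39.6% for H3 and 44.7% for H4, and with H3B-6527 alone the same ratios were 54.5%, 55.2%, 57.9%, 51.8% and 55.4%. Differences between the classes were not tested.

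**Figure D1:**
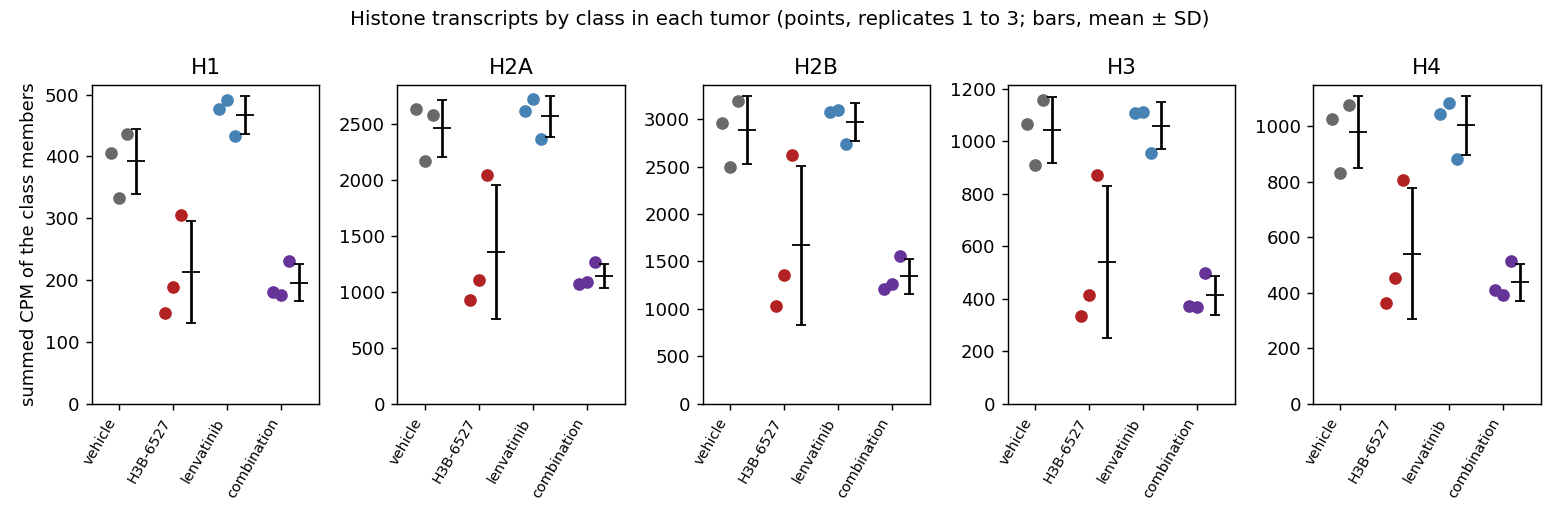
Summed CPM of the histone genes of each class in every tumor, on linear axes that start at 0, with 1 panel per class. Points are the tumors of a group in the order of replicates 1 to 3, and the bar beside them is the mean ± SD of 3 tumors. In each class the combination tumors lie below all vehicle tumors, and the H3B-6527 group holds 2 low tumors and 1 high tumor, replicate 3.

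The mix of classes within the histone counts moved by little. H3 genes made up 13.5 ± 0.28% of histone CPM with vehicle, 12.3 ± 0.73% with H3B-6527, 13.1 ± 0.19% with lenvatinib and 11.7 ± 0.56% with the combination (SD, n = 3). H1 genes took 5.04 ± 0.11% with vehicle, 5.06 ± 0.41% with H3B-6527, 5.79 ± 0.067% with lenvatinib and 5.54 ± 0.16% with the combination. H2A held 31.8%, 31.7%, 31.9% and 32.4% in the same order of groups, H2B 37.1%, 38.3%, 36.8% and 38.0%, and H4 12.6%, 12.7%, 12.4% and 12.4%. Shares are by counts and not per transcript length, so they compare the groups and not the classes with each other.

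With H3B-6527 against vehicle, 39 of the 61 tested histone genes fell and 1 rose (edgeR quasi-likelihood test, Benjamini-Hochberg adjusted p under 0.05), where 24.3% of all 15836 tested genes fell and 25.2% rose. Their median log2 fold change was −0.77, and that of all tested genes was 0.01. The groups did not overlap for 25 of the 61, with all 3 H3B-6527 tumors below all vehicle tumors, which held for 27.9% of all tested genes. The number called was 17 when the fit held only these 2 groups, and it depended on single libraries: it was 51 without H3B-6527 replicate 3, with a median of −1.24, while it was 14 without H3B-6527 replicate 2, 16 without H3B-6527 replicate 1, 17 without vehicle replicate 3 and 22 without vehicle replicate 1. Without H3B-6527 replicate 3, 26.2% of all genes tested in that fit fell. The share of all genes is not given for the other fits. Their counts, here and by class, cluster and list below, are thus not set against such a share.

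In the combination against vehicle 50 of 61 histone genes fell and 1 rose, with a median log2 fold change of −1.08, where 25.3% of all tested genes fell and 24.8% rose. All 3 combination tumors lay below all 3 vehicle tumors for 52 of 61 histone genes, against 32.8% of all tested genes. Against lenvatinib, 51 fell and 1 rose, with a median of −1.17, where 20.9% of all tested genes fell and 19.1% rose, and the groups did not overlap for 52 of 61, against 29.7% of all. The counts that fell with the combination include HIST1H1T, here and in the sets of genes below. It passed the low-count filter through groups in which it was high, vehicle and lenvatinib. Among the 57 histone genes with a mean of 1 CPM or more, which leave it out, 39 fell with H3B-6527 and 49 with the combination against vehicle, and 0 rose. The comparisons with vehicle share the vehicle tumors, and both comparisons of the combination share its tumors. When single libraries were left out, between 39 and 51 histone genes fell against vehicle and between 41 and 50 against lenvatinib.

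By class, the counts that fell in the combination against vehicle were 4 of 5 tested H1 genes, 13 of 15 H2A, 12 of 17 H2B, 11 of 13 H3 and 10 of 11 H4. Over all tested genes 25.3% fell. The H3 counts, here and below, hold HIST2H3A and HIST2H3C, which had identical values, as 2 genes. The H1 count includes HIST1H1T, which passed the low-count filter through groups in which it was high, vehicle and lenvatinib. This count was 2 without combination replicate 2. The median log2 fold changes were −1.05 for H1, −1.15 for H2A, −1.02 for H2B, −1.17 for H3 and −1.02 for H4. With H3B-6527 alone 3 H1, 13 H2A, 8 H2B, 8 H3 and 7 H4 genes fell, with medians of −0.84, −0.86, −0.66, −0.81 and −0.81, and without its replicate 3 the counts were 4, 14, 12, 11 and 10 with medians of −1.36, −1.25, −1.19, −1.33 and −1.21. Without H3B-6527 replicate 1 they were 2, 5, 1, 4 and 4, with medians of −0.61, −0.59, −0.40, −0.54 and −0.56. Without H3B-6527 replicate 2 they were 2, 5, 1, 3 and 3, and without vehicle replicate 3 they were 2, 6, 1, 4 and 4. Leaving out vehicle replicate 1 gave 2, 7, 4, 4 and 5. Over all tested genes 24.3% fell with H3B-6527, and 26.2% did without its replicate 3. For the other fits with a library left out this share is not given, so their counts are not set against it. The median standard error of a single gene's log2 fold change was 0.28 in both comparisons of all libraries.

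**Figure D2:**
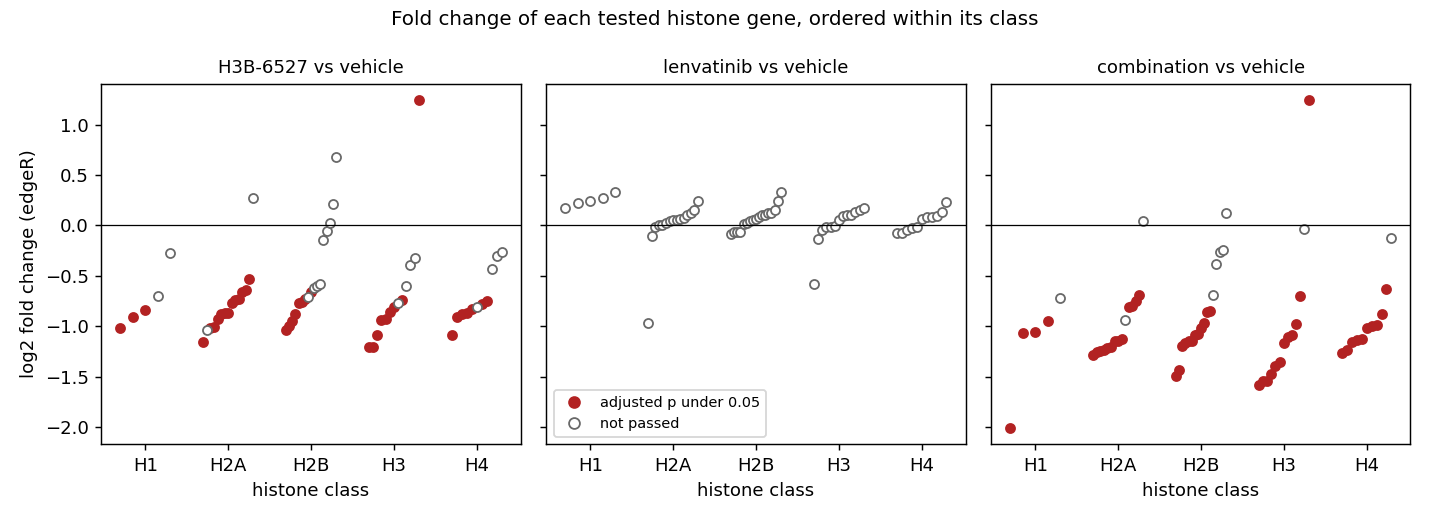
Log2 fold change from edgeR for each of the 61 tested histone genes, ordered within its class, with H3B-6527, lenvatinib and the combination each against vehicle. Filled points passed an adjusted p of 0.05 and open points did not. With lenvatinib no point is filled, and in the other panels most points lie below 0 in all 5 classes, with 1 H3 gene, HIST3H3, as the filled point above 0.

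The H1 genes encode the linker histones, and 3 of them, HIST1H1E, HIST1H1C and HIST1H1B, held nearly all H1 counts. Here and in what follows a rise or fall of a gene is given as its signed log2 fold change ± SE. HIST1H1E was measured at 167, 135 and 180.5 CPM with vehicle, 69.9, 80.0 and 119.6 with H3B-6527, 184, 206 and 172 with lenvatinib and 79.2, 75.7 and 94.8 with the combination. It fell by a log2 fold change of −0.84 ± 0.18 with H3B-6527 (SE, adjusted p = 0.00216) and −0.95 ± 0.18 with the combination (adjusted p = 9.63e-04), and neither treated group overlapped vehicle. HIST1H1C, whose transcript can be polyadenylated in differentiated cells, stood at 138, 118 and 146 CPM with vehicle, 44.5, 59.9 and 94.7 with H3B-6527, 162, 158 and 155 with lenvatinib and 58.2, 59.0 and 73.7 with the combination. It fell as well, by −1.01 ± 0.21 with H3B-6527 (adjusted p = 0.00214) and −1.07 ± 0.21 with the combination (adjusted p = 0.00146). Its 3 lenvatinib tumors all lay above the vehicle tumors, with 0.25 ± 0.21 (adjusted p = 0.744), which did not pass.

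HIST1H1B gave 83.4, 66.6 and 92.5 CPM with vehicle, 23.8, 37.0 and 69.3 with H3B-6527, 109, 107 and 89.9 with lenvatinib and 35.3, 32.6 and 49.0 with the combination. It fell with the combination, by −1.05 ± 0.31 (adjusted p = 0.0133), a call that was lost without combination replicate 2 (adjusted p = 0.051). Its fall with H3B-6527, −0.91 ± 0.31 (adjusted p = 0.0277), was lost when any 1 of vehicle replicates 1 and 3 and H3B-6527 replicates 1 and 2 was left out, with adjusted p between 0.063 and 0.091. HIST1H1A, a linker histone gene of lower level, had 17.3, 14.1 and 17.2 CPM with vehicle, 7.97, 11.4 and 21.1 with H3B-6527, 21.2, 19.0 and 14.7 with lenvatinib and 8.66, 8.26 and 12.4 with the combination, and with the combination it did not pass against vehicle (−0.72 ± 0.30, adjusted p = 0.0620) although the groups did not overlap, while it fell against lenvatinib (−0.90 ± 0.30, adjusted p = 0.0314). With H3B-6527 HIST1H1A did not pass in the fit of all libraries, and it fell without H3B-6527 replicate 3 (−0.74 ± 0.21, adjusted p = 0.0106). The remaining tested H1 gene, the testis gene HIST1H1T, is described further on. HIST1H1D, which was not tested, lay between 0.0558 and 0.539 CPM in all tumors.

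Among the H2A genes HIST2H2AA4 had the most counts of all 66 genes, with 1104, 913 and 1067 CPM with vehicle, 342, 411 and 787 with H3B-6527, 1053, 1150.3 and 1008 with lenvatinib and 423, 409.7 and 480.4 with the combination. It fell by −1.002 ± 0.24 with H3B-6527 (adjusted p = 0.00476) and by −1.23 ± 0.24 with the combination (adjusted p = 0.00132), with no overlap with vehicle in either. The next gene by counts, HIST1H2AC, moved less: its levels were 260.1, 207 and 251 CPM with vehicle, 128, 139 and 229.5 with H3B-6527, 258, 255 and 241 with lenvatinib and 136, 154 and 156 with the combination. It fell with the combination (−0.69 ± 0.18, adjusted p = 0.00716), and its fall with H3B-6527 (−0.53 ± 0.18, adjusted p = 0.0265) was lost without any 1 of vehicle replicates 1 and 3 and H3B-6527 replicates 1 and 2, with adjusted p between 0.076 and 0.10. HIST1H2AG stood at 286, 228 and 275 CPM with vehicle, 101, 118 and 213 with H3B-6527, 278, 299.8 and 242 with lenvatinib and 110.4, 114 and 131 with the combination. It fell in both comparisons, by −0.87 and −1.15, with neither treated group reaching the vehicle tumors.

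At lower levels, HIST2H2AB fell by −1.16 ± 0.20 with H3B-6527 (adjusted p = 4.78e-04) and −1.25 ± 0.20 with the combination (adjusted p = 2.76e-04), and its CPM was 9.72, 8.87 and 9.54 CPM with vehicle, 3.24, 3.42 and 6.16 with H3B-6527, 9.67, 10.0 and 8.08 with lenvatinib and 4.14, 3.52 and 4.17 with the combination. HIST1H2AH and HIST1H2AB had the largest falls of the class in the combination, −1.29 and −1.26. HIST1H2AB was at 29.2, 24.99 and 31.6 CPM with vehicle and 9.96, 10.5 and 15.2 CPM with the combination, and HIST1H2AH at 197, 173 and 198 and 70.0, 69.1 and 93.7. With H3B-6527 both were called in the fit of all libraries but not without H3B-6527 replicate 1 or 2, nor, for HIST1H2AB, without vehicle replicate 3 (adjusted p between 0.058 and 0.074). The other H2A genes that fell with the combination, HIST2H2AC, HIST1H2AM, HIST1H2AE, HIST1H2AD, HIST1H2AL, HIST1H2AK and HIST1H2AJ, had log2 fold changes between −1.21 and −0.75.

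Of the 2 H2A genes that did not pass, HIST2H2AA3 lay between 1.17 and 2.68 CPM in every tumor, and HIST3H2A was set apart by a single library. HIST3H2A stood at 9.22, 2.88 and 3.20 CPM with vehicle, 1.21, 1.84 and 4.65 with H3B-6527, 2.41, 2.92 and 2.49 with lenvatinib and 2.85, 2.63 and 2.49 with the combination, so vehicle replicate 1 was far above the other 2 vehicle tumors. Its log2 fold change was −0.94 ± 0.49 with the combination (adjusted p = 0.129) and −0.97 ± 0.48 with lenvatinib (adjusted p = 0.518). Against lenvatinib the combination differed by 0.03 ± 0.50. With H3B-6527 HIST3H2A did not pass in the fit of all libraries, and it fell without H3B-6527 replicate 3 (−1.74 ± 0.45, adjusted p = 0.00694). HIST1H2AI, which was not tested, did not exceed 0.229 CPM in any tumor.

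The H2B genes pair with H2A in the octamer, and 3 of them with high counts are the genes HIST2H2BF, HIST1H2BK and HIST2H2BE. HIST2H2BF was at 545, 447 and 588 CPM with vehicle, 193, 244 and 489 with H3B-6527, 564, 572 and 509 with lenvatinib and 213, 216 and 275 with the combination. HIST1H2BK stood at 511, 435 and 563 CPM with vehicle, 161, 219 and 405 with H3B-6527, 485, 513 and 441 with lenvatinib and 215, 210.5 and 255 with the combination, and HIST2H2BE at 414, 357 and 449 CPM with vehicle, 169, 189 and 362 with H3B-6527, 446, 439 and 408 with lenvatinib and 191, 205 and 226 with the combination. For all 3 the combination tumors lay below every vehicle tumor, with falls of −1.17 ± 0.27 (adjusted p = 0.00398), −1.15 ± 0.26 (adjusted p = 0.00322) and −0.97 ± 0.23 (adjusted p = 0.00406). With H3B-6527 HIST1H2BK fell by −0.95 ± 0.26 without overlap (adjusted p = 0.00996), whereas for HIST2H2BF and HIST2H2BE replicate 3 reached into the range of vehicle. Their falls of −0.77 and −0.76 were lost when vehicle replicate 3 or H3B-6527 replicate 1 or 2 was left out, and for HIST2H2BF also without vehicle replicate 1 (adjusted p between 0.053 and 0.11).

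The largest falls among H2B genes in the combination were those of HIST1H2BO and HIST1H2BJ. HIST1H2BO was measured at 148, 126 and 174 CPM with vehicle, 42.4, 55.4 and 127 with H3B-6527, 146, 152 and 130.4 with lenvatinib and 46.5, 50.7 and 61.7 with the combination, a change of −1.49 ± 0.32 with the combination (adjusted p = 0.00225). HIST1H2BJ gave 158, 134 and 192 CPM with vehicle, 42.4, 61.8 and 132 with H3B-6527, 158, 155 and 144 with lenvatinib and 57.2, 52.8 and 68.7 with the combination, a change of −1.44 ± 0.32 (adjusted p = 0.00288). With H3B-6527 both fell in the fit of all libraries (adjusted p = 0.0201 and 0.0171), and both calls were lost without vehicle replicate 3 or H3B-6527 replicate 1 or 2 (adjusted p between 0.055 and 0.077). HIST1H2BC fell with the combination by −1.19 ± 0.29 (adjusted p = 0.00518), from 392, 309 and 398 CPM to 136, 150.0 and 194 CPM, and HIST1H2BF by −1.08 ± 0.33 (adjusted p = 0.0160), from 131, 108 and 143 CPM to 53.9, 52.8 and 73.9 CPM. Another 5 H2B genes, HIST1H2BD, HIST1H2BN, HIST1H2BG, HIST1H2BH and HIST1H2BB, fell with the combination by between −0.85 and −1.15.

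Of the 17 tested H2B genes 5 did not pass in the combination against vehicle. HIST1H2BI was at 9.77, 11.6 and 11.3 CPM with vehicle, 7.05, 9.78 and 16.8 with H3B-6527, 15.5, 13.1 and 10.1 with lenvatinib and 8.54, 8.32 and 10.3 with the combination, and HIST1H2BM at 3.91, 4.23 and 3.31 CPM with vehicle, 2.34, 3.85 and 7.33 with H3B-6527, 3.73, 3.88 and 4.03 with lenvatinib and 2.81, 2.28 and 3.63 with the combination. Both were highest in H3B-6527 replicate 3, and neither passed in the combination (−0.26 ± 0.26 and −0.38 ± 0.32). HIST3H2BB, HIST1H2BE and HIST1H2BL, all under 2 CPM in every tumor, had log2 fold changes of −0.24 ± 0.32, 0.12 ± 0.37 and −0.69 ± 0.55 with the combination.

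The H3 genes encode the histone with the most modified tail. HIST2H3A and HIST2H3C had identical values in all 12 libraries, 223, 194 and 245 CPM with vehicle, 60.4, 71.4 and 157 with H3B-6527, 223, 235 and 199 with lenvatinib and 71.8, 65.8 and 88.9 with the combination. Each fell by −1.20 ± 0.28 with H3B-6527 (adjusted p = 0.00436) and −1.55 ± 0.29 with the combination (adjusted p = 9.29e-04). The 3 HIST2 genes of H3 had the lowest median of any class within a cluster in both comparisons, −1.20 and −1.55. That median is the shared value of HIST2H3A and HIST2H3C, which counts the same measurement more than once. The third, HIST2H3D, was at 60.8, 48.0 and 67.1 CPM with vehicle, 13.7, 24.1 and 45.6 with H3B-6527, 56.1, 57.6 and 46.7 with lenvatinib and 21.3, 17.6 and 24.5 with the combination, which gave −1.47 ± 0.33 with the combination (adjusted p = 0.00288). With H3B-6527 it gave −1.09 ± 0.32 (adjusted p = 0.0151), or 0.052 as the adjusted p without H3B-6527 replicate 2.

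Of the HIST1 genes of this class HIST1H3D had the most counts and HIST1H3J the largest fall. HIST1H3D stood at 150.5, 127 and 161 CPM with vehicle, 52.2, 76.0 and 162 with H3B-6527, 173, 154 and 143 with lenvatinib and 60.3, 69.7 and 92.0 with the combination. H3B-6527 replicate 3 was as high as the highest vehicle tumor, and the change with H3B-6527 was −0.60 ± 0.32 (adjusted p = 0.139), or −1.19 without that library (adjusted p = 3.01e-04). With the combination it fell by −0.98 ± 0.32 (adjusted p = 0.0237), a call that was lost without any 1 of vehicle replicates 1 and 3 and combination replicates 1 and 2 (adjusted p between 0.055 and 0.086). HIST1H3J was measured at 26.6, 22.6 and 32.3 CPM with vehicle, 10.8, 13.3 and 25.4 with H3B-6527, 29.3, 28.5 and 23.3 with lenvatinib and 7.91, 8.74 and 10.6 with the combination. Its fall with the combination was −1.58 ± 0.27 (adjusted p = 5.39e-04), and all 3 combination tumors also lay below all 3 H3B-6527 tumors.

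HIST1H3B and HIST1H3C fell in both comparisons with vehicle. The call of HIST1H3B with H3B-6527 was lost at least when H3B-6527 replicate 2 was left out, whereas that of HIST1H3C was kept. HIST1H3B went from 146, 126 and 153 CPM with vehicle to 44.7, 55.5 and 124 with H3B-6527 and 48.0, 48.5 and 69.9 with the combination, where it fell by −1.35 ± 0.31 (adjusted p = 0.00337). HIST1H3C went from 112, 90.2 and 123 CPM to 41.2, 43.0 and 86.1 and 37.7, 36.5 and 49.8, a fall of −1.39 ± 0.25 with the combination (adjusted p = 8.01e-04). The other HIST1 genes of the class, HIST1H3A, HIST1H3H, HIST1H3I and HIST1H3F, fell with the combination by between −1.17 and −0.70. HIST1H3E was the 1 tested H3 gene that passed in no comparison: it lay between 1.84 and 2.88 CPM in all 12 tumors, and its change with the combination was −0.03 ± 0.17. HIST1H3G, which was not tested, did not exceed 0.301 CPM.

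All H4 genes encode the same protein, the partner of H3, and HIST2H4A had the most counts among them, 439.6, 345 and 456 CPM with vehicle, 147, 188 and 344 with H3B-6527, 454, 472 and 369 with lenvatinib and 157, 157 and 213 with the combination. It fell by −1.24 ± 0.26 with the combination (adjusted p = 0.00232) and by −0.87 ± 0.26 with H3B-6527 (adjusted p = 0.0163), the latter lost without vehicle replicate 3 or H3B-6527 replicate 1 or 2 (adjusted p between 0.051 and 0.061). HIST1H4J was at 237, 193 and 263 CPM with vehicle, 87.2, 106 and 184 with H3B-6527, 235, 245 and 202 with lenvatinib and 103, 94.9 and 114 with the combination, and HIST1H4E at 117, 98.5 and 115 CPM with vehicle, 43.2, 53.9 and 96.1 with H3B-6527, 121, 122 and 108 with lenvatinib and 50.8, 49.4 and 62.7 with the combination. Both fell with no overlap with vehicle in either comparison, by −0.88 and −0.78 with H3B-6527 and by −1.15 and −1.02 with the combination, and 1 of these calls, HIST1H4E with H3B-6527, did not pass once H3B-6527 replicate 2 was left out (adjusted p = 0.056).

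HIST1H4I had the smallest adjusted p of all histone genes in the combination against vehicle. Its levels were 61.5, 56.8 and 63.9 CPM with vehicle, 25.9, 27.2 and 44.8 with H3B-6527, 58.1, 62.1 and 52.6 with lenvatinib and 28.9, 24.9 and 29.2 with the combination. With H3B-6527 it fell by −0.90 ± 0.17 (adjusted p = 9.19e-04) and with the combination by −1.13 ± 0.17 (adjusted p = 1.90e-04), and here H3B-6527 replicate 3 also lay below every vehicle tumor. HIST1H4C had the largest fall of the class, −1.27 ± 0.24 with the combination (adjusted p = 9.95e-04) and −1.08 ± 0.24 with H3B-6527 (adjusted p = 0.00270), from 62.9, 48.3 and 63.8 CPM with vehicle to 22.5, 20.2 and 29.8 and 19.1, 24.4 and 39.5. HIST1H4B, HIST1H4A, HIST1H4D and HIST1H4H fell with the combination by between −1.12 and −0.88. HIST2H4B, at 0.712 to 1.73 CPM, did not pass (−0.13 ± 0.34).

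**Figure D3:**
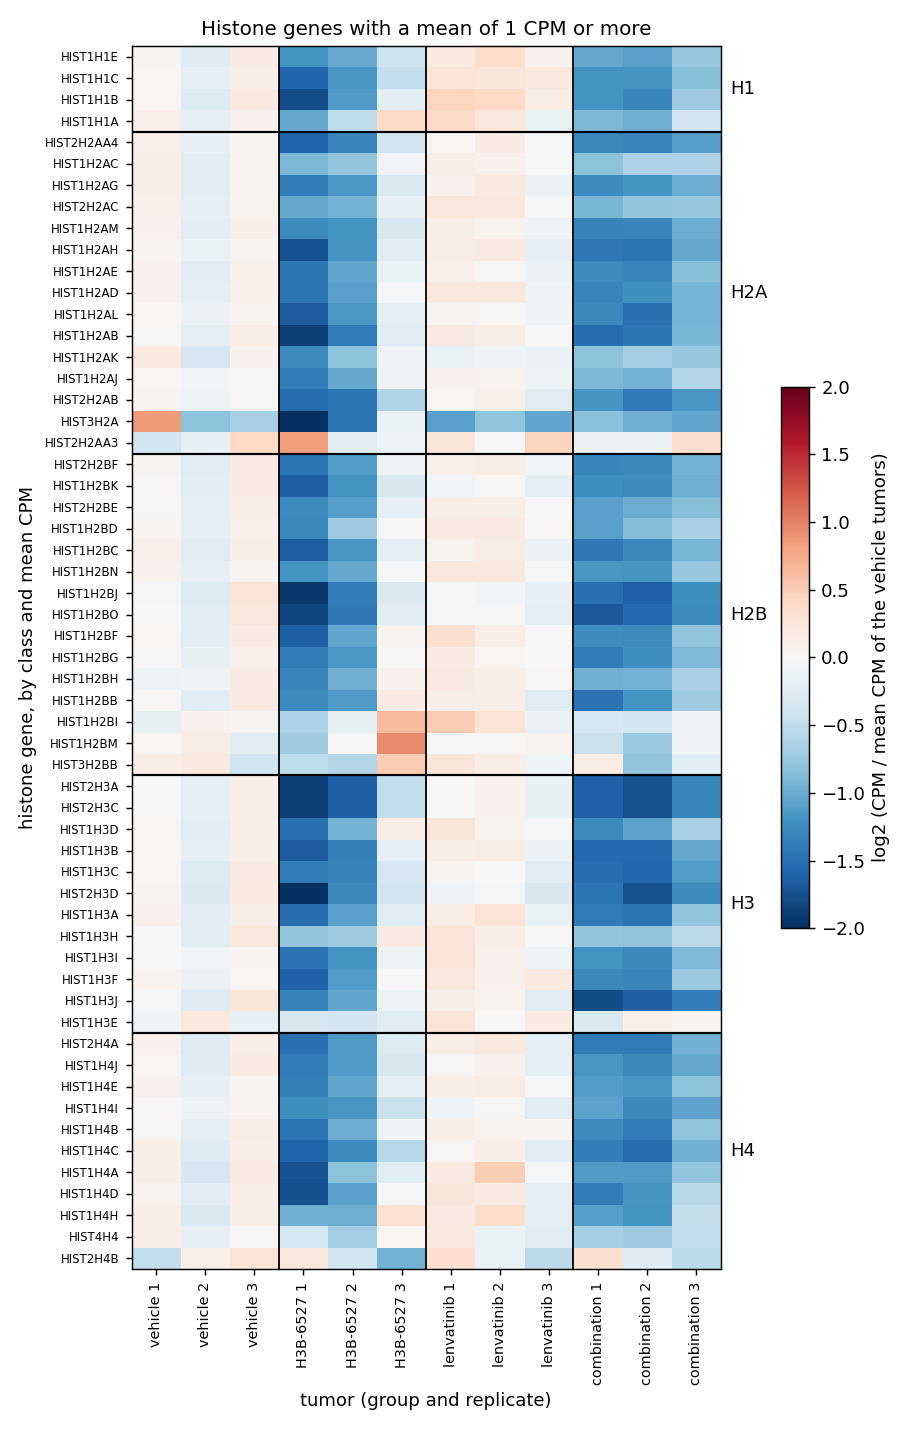
Log2 ratio of CPM to the mean of the vehicle tumors for the 57 histone genes with a mean of 1 CPM or more, in rows by class and mean CPM, with the 12 tumors in columns by group. Blue is below and red above the vehicle mean, with the colors limited at 2 in each direction. The columns of H3B-6527 replicates 1 and 2 and of the combination are blue in most rows, H3B-6527 replicate 3 is near the vehicle columns, and the low-count rows of each class, at its lower end, are mixed.

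By cluster, most tested HIST1 and HIST2 genes fell and no HIST3 gene did. In the combination against vehicle 40 of 46 tested HIST1 genes fell (median −1.09), 9 of 11 HIST2 genes (median −1.23) and 0 of 3 HIST3 genes, of which 1 rose. In that comparison 25.3% of all tested genes fell and 24.8% rose. The HIST2 counts hold HIST2H3A and HIST2H3C, which had identical values, as 2 genes. With H3B-6527 alone, 30 HIST1 genes fell (median −0.77) and 9 HIST2 genes (median −0.87), where 24.3% of all tested genes fell. Without H3B-6527 replicate 3 the counts were 40 and 9, and 1 HIST3 gene fell, where 26.2% of all genes tested in that fit fell. Without H3B-6527 replicate 2 they were 9 and 5, and without H3B-6527 replicate 1 they were 10 and 6. Without vehicle replicate 3 they were 11 and 6, and without vehicle replicate 1 they were 14 and 8. For these other fits the share of all genes is not given, so their counts are not set against it. The single HIST4 gene, HIST4H4, was at 6.65, 5.45 and 6.17 CPM with vehicle, 4.78, 3.82 and 6.28 with H3B-6527, 7.04, 5.55 and 5.15 with lenvatinib and 3.79, 3.66 and 4.34 with the combination, and it fell with the combination (−0.63 ± 0.18, adjusted p = 0.0125) and did not pass with H3B-6527 (−0.31 ± 0.18, adjusted p = 0.182), though it fell without H3B-6527 replicate 3 (−0.50 ± 0.18, adjusted p = 0.0296). HIST2 genes made up 39.6 ± 0.19% of histone CPM with vehicle, 37.8 ± 0.79% with H3B-6527, 39.6 ± 0.47% with lenvatinib and 38.0 ± 0.73% with the combination (SD, n = 3). Whether clusters differ in their response was not tested.

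Some of these genes are known to give transcripts that can carry a poly(A) tail. The 11 listed as such were HIST1H1C, HIST1H2AC, HIST1H2BC, HIST1H2BD, HIST1H2BJ, HIST1H2BK, HIST1H4H, HIST2H2BE, HIST2H2BF, HIST3H2A and HIST4H4. In the combination against vehicle 10 of the 11 fell, with a median of −0.97, and 40 of the other 50 tested genes fell, with a median of −1.10. The share of all tested genes that fell there was 25.3%. With H3B-6527, where 24.3% of all tested genes fell, the counts were 7 of 11 and 32 of 50, with medians of −0.77 in both sets. These were 11 of 11 and 40 of 50 without H3B-6527 replicate 3, 2 of 11 and 14 of 51 without its replicate 1, 2 of 11 and 12 of 51 without its replicate 2, 2 of 11 and 15 of 51 without vehicle replicate 3, and 4 of 11 and 18 of 51 without vehicle replicate 1. Without H3B-6527 replicate 3, 26.2% of all genes tested in that fit fell. For the other fits with a library left out this share is not given, so their counts are not set against it. A difference between the sets was not tested. Whether the libraries were made from polyadenylated RNA or from RNA without ribosomal RNA is not stated in the sources used here, so the level of stem-loop transcripts may depend on that step.

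Of the 4 histone genes known for their expression in the testis, HIST3H3 was the 1 gene of the 61 called higher. HIST3H3 encodes the testis H3 variant H3t, and its levels were 0.251, 0.357 and 0.315 CPM with vehicle, 0.797, 0.759 and 0.628 with H3B-6527, 0.247, 0.160 and 0.205 with lenvatinib and 0.632, 0.898 and 0.686 with the combination. All treated tumors with H3B-6527, alone or combined, lay above all other tumors. The log2 fold change was 1.24 ± 0.30 with H3B-6527 (adjusted p = 0.00387), 1.24 ± 0.30 with the combination (adjusted p = 0.00366) and 1.82 ± 0.32 for the combination against lenvatinib (adjusted p = 7.70e-04). HIST3H3 passed the low-count filter through the groups in which it was high: its level reached the filter's bound of 0.279 CPM in 3 H3B-6527, 3 combination, 2 vehicle and 0 lenvatinib libraries, so these calls are given as a description. The levels rest on few reads: the 3 tumors of a group summed to 35 counts with vehicle, 74 with H3B-6527, 22 with lenvatinib and 73 with the combination. The ratio of pooled CPM to vehicle was 2.40 with H3B-6527 (95% exact binomial interval 1.58 to 3.70) and 2.36 with the combination (1.56 to 3.64). Such intervals cover counting error only and leave out the spread between tumors, so they are not a test.

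HIST1H2BA, the testis H2B gene, went the same way at lower counts and was not in the tests. It was measured at 0.0558, 0.0255 and 0 CPM with vehicle, 0.206, 0.244 and 0.168 with H3B-6527, 0, 0 and 0.0256 with lenvatinib and 0.190, 0.173 and 0.0762 with the combination, from 3 counts in all with vehicle, 21 with H3B-6527, 1 with lenvatinib and 14 with the combination. The ratio of pooled CPM to vehicle was 7.95 with H3B-6527 and 5.28 with the combination, as a description that rests on 3 counts with vehicle. No test or interval is given, since its counts come nearly all from the groups in which it was high. All 6 of these tumors lay above all 6 tumors of the vehicle and lenvatinib groups.

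The other 2 testis genes were also at few counts. HIST1H2AA had 3 counts with vehicle, 6 with H3B-6527, 2 with lenvatinib and 10 with the combination, a ratio to vehicle of 2.27 with H3B-6527 (95% exact binomial interval 0.485 to 14.0) and 3.77 with the combination (0.972 to 21.3). The ratio of the combination to lenvatinib was 5.34 (1.14 to 50.1), and single tumors of all groups overlapped. These intervals pool the reads of 3 tumors and leave out the spread between tumors, so they are not a test. HIST1H1T, the testis linker histone, stood at 0.335, 0.306 and 0.341 CPM with vehicle, 0.0514, 0.190 and 0.419 with H3B-6527, 0.493, 0.385 and 0.308 with lenvatinib and 0, 0.0691 and 0.152 with the combination, from 37, 19, 42 and 8 counts. It fell with the combination by −2.01 ± 0.73 against vehicle (adjusted p = 0.0354) and −2.27 ± 0.72 against lenvatinib (adjusted p = 0.0235). It passed the filter through the groups in which it was high, with 3 vehicle, 3 lenvatinib, 1 H3B-6527 and 0 combination libraries at the bound, so these calls too are a description. The call against vehicle was lost when any vehicle tumor or combination replicate 1 or 2 was left out (adjusted p between 0.062 and 0.11), and that against lenvatinib without lenvatinib replicate 1 or 2 or combination replicate 1 or 2 (adjusted p between 0.054 and 0.075).

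**Figure D4:**
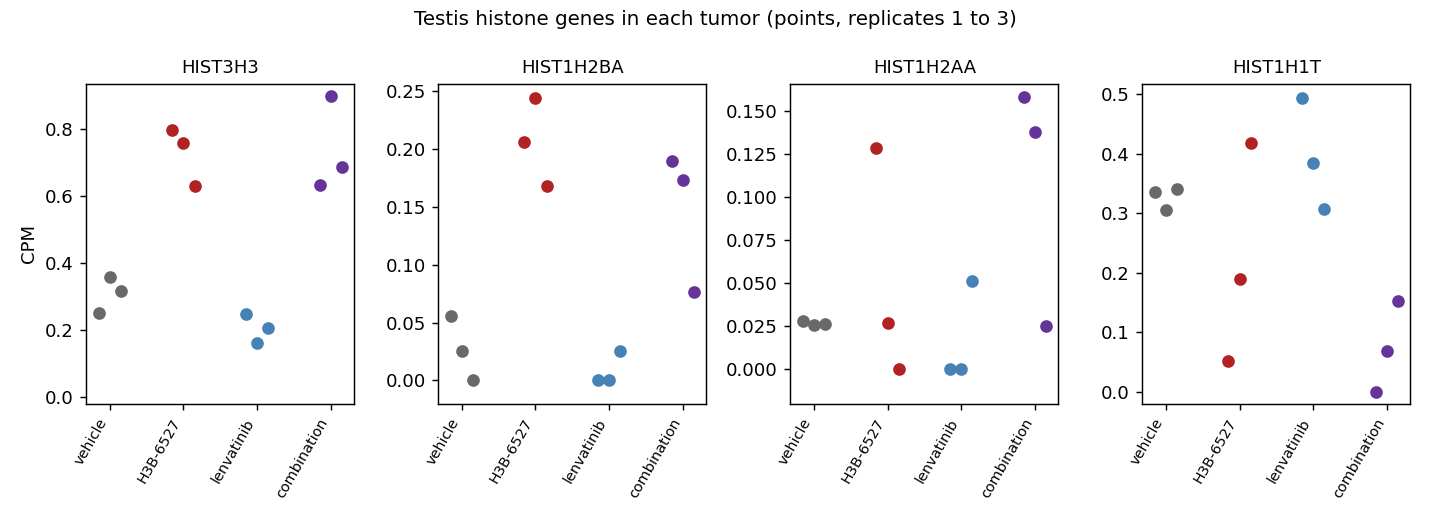
CPM of the 4 testis histone genes in every tumor, each panel on its own linear axis, with points in the order of replicates 1 to 3. For HIST3H3 and HIST1H2BA the H3B-6527 and combination tumors lie above all vehicle and lenvatinib tumors, whereas HIST1H1T is lowest in combination replicate 1 at 0.

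Many histone genes are nearly identical to each other, and the deposited counts show where reads had to be shared. A count that is not a whole number (tolerance 0.01) means that kallisto divided reads among transcripts. Over the 66 genes 47.6% of values were whole, against 61.8% over all genes with 10 or more counts. The classes differed: all values were whole for H1, 65.5% for H3, 65.2% for H4, 27.3% for H2B and 24.5% for H2A. Of the 16 tested genes whose counts were whole in all 12 libraries, 15 fell in the combination against vehicle, with a median of −1.06. Of the other 45, 35 fell, with a median of −1.12, and of all tested genes 25.3% fell in that comparison.

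In 3 near-identical HIST2 pairs the split of reads decides the gene's own value, which is therefore uncertain. HIST2H3A took 50.0% of the counts of its pair with HIST2H3C. HIST2H2AA3 took 0.219% of the counts of its pair with HIST2H2AA4, and HIST2H4A took 99.6% of the counts of its pair with HIST2H4B. HIST2H2AA3 and HIST2H4B, which did not pass on their own, thus hold few of the reads of their pairs. With the counts of each pair summed, the log2 fold change in the combination was −1.23 ± 0.24 for HIST2H2AA3 and HIST2H2AA4 (adjusted p = 0.00129), −1.55 ± 0.29 for HIST2H3A and HIST2H3C (adjusted p = 9.59e-04) and −1.23 ± 0.26 for HIST2H4A and HIST2H4B (adjusted p = 0.00226).

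Lenvatinib alone changed no histone gene past the threshold. Against vehicle 0 of 61 rose and 0 fell, as did 0% of all tested genes in either direction, and the median log2 fold change was 0.06. Fold changes ran from −0.97 for HIST3H2A to 0.34 for HIST1H1B, and 0 of the 61 had an unadjusted p under 0.05, against 1698 of all tested genes. DESeq2 and limma voom also called 0 histone genes. For HIST1H1C, HIST1H1D and HIST1H3F all 3 lenvatinib tumors lay above the vehicle tumors, and for HIST3H3 all lay below. Of all tested genes 11.8% were separated upward and 10.9% downward in this way, and nothing is read from these 4 genes. HIST1H3F was at 26.6, 23.4 and 25.9 CPM with vehicle and 29.6, 26.9 and 28.9 with lenvatinib.

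Adding lenvatinib to H3B-6527 gave no called difference either. The combination against H3B-6527 had 0 of 61 histone genes higher and 0 lower, where 0.0126% of all tested genes were higher and 0% lower. The median log2 difference was −0.31, and 57 of 61 differences were below 0. This sign depended on 1 tumor: without H3B-6527 replicate 3 the median was 0.16, again with 0 genes called. At an unadjusted p under 0.05 stood 1 gene, HIST1H3J, with −0.84 ± 0.27 (unadjusted p = 0.00924, adjusted p = 0.397). DESeq2 and limma voom called 0.

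Non-additivity asks whether the log2 change with both agents differs from the sum of the changes with each. It was called for 0 of 61 histone genes in either direction and for 0% of all tested genes. HIST1H3J was again the 1 histone gene at an unadjusted p under 0.05, with −0.84 ± 0.37 (unadjusted p = 0.0455, adjusted p = 0.910). The median over the 61 genes was −0.36, with a median standard error of 0.39. This median is not given without H3B-6527 replicate 3. The median of the combination against H3B-6527 went from −0.31 to 0.16 without that tumor, so nothing is read from the sign here.

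Of 11 tested genes listed as replication-independent histone genes 3 rose and 5 fell in the combination, where 24.8% of all tested genes rose and 25.3% fell. The list also holds H2AFX and CENPA, and constant expression over the cell cycle was not examined for its genes. With H3B-6527 alone 2 rose and 4 fell, against 25.2% and 24.3% of all, and without its replicate 3 these were 2 and 5. The count that rose with H3B-6527 was 1 without vehicle replicate 2 or 3 or H3B-6527 replicate 2. H1F0, a linker histone of non-dividing cells, rose by 0.64 ± 0.11 with H3B-6527 (adjusted p = 3.81e-04) and 0.91 ± 0.11 with the combination (adjusted p = 2.86e-05), and H2AFJ rose by 0.65 and 0.92. The rise of H2AFJ with H3B-6527 was lost when vehicle replicate 2 or 3 or H3B-6527 replicate 1 or 2 was left out (adjusted p between 0.054 and 0.089). H2AFZ, the variant H2A.Z, fell by −0.56 and −0.70, the former not in a fit of only the groups compared (adjusted p = 0.054). In both comparisons H2AFX, the variant marked at DNA breaks, fell by −0.82 and −0.99, and CENPA, the H3 variant of centromeres, by −1.32 and −1.25. The genes H3F3A and H3F3B encode the same H3 protein: H3F3A fell by −0.57 and −0.46, while H3F3B changed by −0.13 ± 0.07 (adjusted p = 0.139) and −0.05 ± 0.07 (adjusted p = 0.603), a value of 0.01 with upper-quartile scaling.

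Factors that make and process histone mRNA fell in part. Of 18 tested genes, 12 fell in the combination and 9 with H3B-6527, and 0 rose, with medians of −0.34 and −0.28. Of all tested genes 25.3% fell in the combination and 24.3% with H3B-6527. With H3B-6527 the count of the 18 that fell was 11 without its replicate 3 and 5 without its replicate 1. It was 4 without vehicle replicate 1 and 3 without vehicle replicate 3. SLBP fell by −0.73 ± 0.18 with the combination (adjusted p = 0.00433) and by −0.54 ± 0.18 with H3B-6527 (adjusted p = 0.0229), the latter lost without vehicle replicate 2 or 3 (adjusted p = 0.055 and 0.060). NPAT did not pass, with −0.07 ± 0.10 and −0.18 ± 0.10, though with scaling by library totals, which shifts the median of all genes by −0.15, it was called in the combination (adjusted p = 0.027). ZNF473, a zinc finger protein of histone pre-mRNA processing, fell by −0.78 with the combination, CSTF2 and CPSF2 of the cleavage machinery by −0.78 and −0.48, and NCBP1 of the cap-binding complex by −0.40. Of 20 tested histone chaperones and assembly factors 12 fell in the combination and 8 with H3B-6527 (13 without its replicate 3, 4 without vehicle replicate 1 or 3), among them SUPT16H of the FACT complex (−0.84), the acetyltransferase HAT1 (−0.70), ASF1A (−0.44) and HJURP (−1.05), the chaperone of CENPA, in the combination.

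Proliferation genes moved beside the histone genes. Of 37 S phase genes, 31 fell in the combination (median −0.76) and 18 with H3B-6527 (median −0.50), and of 18 genes of G2 and mitosis 18 and 13 fell (medians −1.02 and −0.75). Of all tested genes 25.3% fell in the combination and 24.3% with H3B-6527. The S phase count in the combination was 20 without combination replicate 1. With H3B-6527 the S phase and G2 counts were 33 and 18 without its replicate 3, 13 and 6 without its replicate 1, 10 and 6 without its replicate 2, 8 and 7 without vehicle replicate 3, 11 and 9 without vehicle replicate 1, and 15 and 8 without vehicle replicate 2. MKI67, a marker of cycling cells, changed by −0.99 ± 0.26 with the combination (adjusted p = 0.00844) and −0.67 ± 0.26 with H3B-6527 (adjusted p = 0.0511). PCNA, the clamp of the replication fork, changed by −0.72 ± 0.24 (adjusted p = 0.0273) and −0.61 ± 0.24 (adjusted p = 0.0537), and its call in the combination was lost without any 1 of the vehicle tumors or combination replicates 1 and 2 (adjusted p between 0.052 and 0.10). Without H3B-6527 replicate 3 both fell with H3B-6527, by −1.12 (adjusted p = 1.50e-04) and −0.89 (adjusted p = 0.00572). In H3B-6527 replicates 1 to 3 the histone median was −1.37, −1.05 and −0.12. That of S phase genes was −1.14, −0.54 and −0.10, and that of G2 and mitosis genes −1.22, −0.95 and −0.18. Among the combination tumors, the histone median was −1.17, −1.19 and −0.77. There the S phase median was −0.99, −0.84 and −0.49, and the G2 and mitosis median −1.24, −1.15 and −0.65. What part the number of cycling cells has in the histone levels was not tested.

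**Figure D5:**
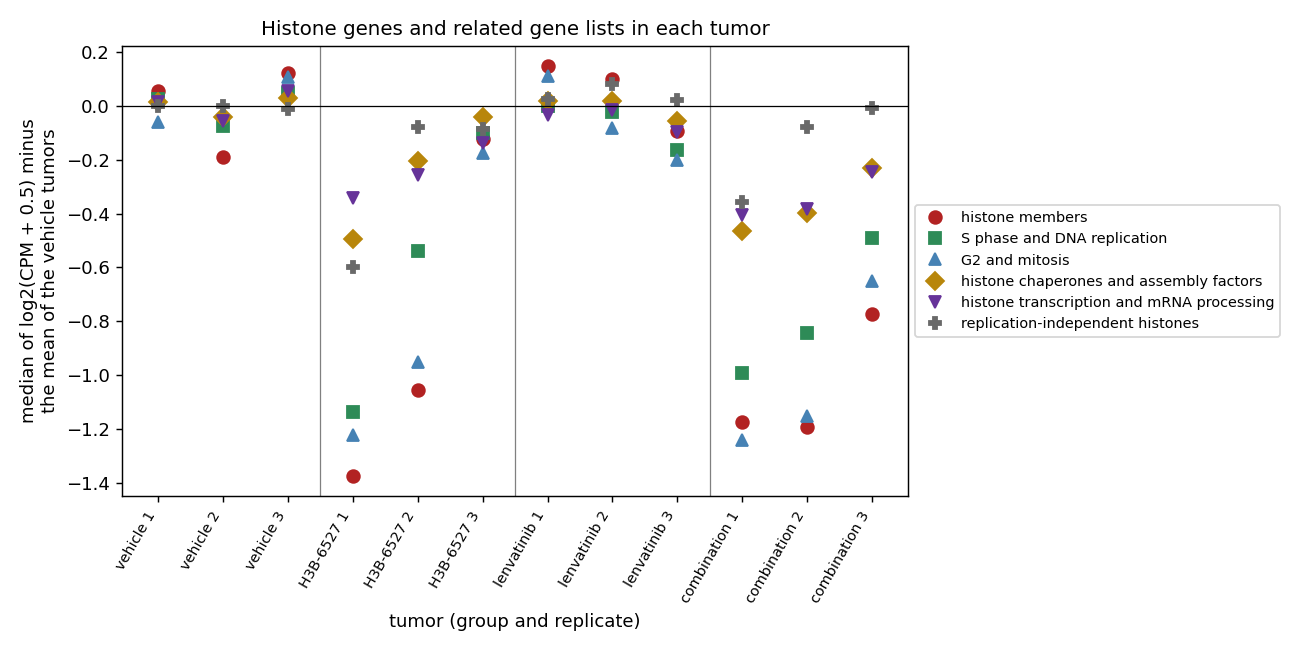
Median over each gene list of log2(CPM + 0.5) minus the mean of the vehicle tumors, for each of the 12 tumors, with 1 symbol per list. The histone genes, the S phase genes and the genes of G2 and mitosis are low in H3B-6527 replicates 1 and 2 and in the combination tumors and near 0 in the vehicle and lenvatinib tumors and in H3B-6527 replicate 3.

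Most hepatocyte markers rose, and the human symbols of stromal and immune markers had low summed levels. Of 10 hepatocyte markers 8 rose in the combination and 8 with H3B-6527, against 24.8% and 25.2% of all tested genes. ALB of that list rose by 1.12 ± 0.17 and 1.16 ± 0.17. FGFR4 of the same list fell with H3B-6527 (−0.28 ± 0.10, adjusted p = 0.0353) but did not pass in the combination (−0.20 ± 0.10), and FGF19 passed in neither (−0.89 ± 0.38 and −0.84 ± 0.38). The number of these markers that fell with H3B-6527 was 2 without its replicate 3, and 0 without its replicate 1 or without vehicle replicate 1 or 3. Fibroblast markers summed to 50.2 to 55.9 CPM with vehicle and 31.6 to 36.3 CPM with the combination, with 3 of 4 tested lower. Leukocyte markers summed to 195 to 212 and 158 to 190 CPM, with 2 of 5 higher and 1 lower. In the combination 25.3% of all tested genes fell and 24.8% rose. The part of these markers in the histone levels was not tested. Histone coding sequences are alike in mouse and human, and a removal of mouse reads ahead of the counting is not recorded in the sources used here.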

How the data were processed

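RNA from 12 Hep3B tumors, 3 per group, was sequenced, with each library on 4 lanes. The deposited table holds expected counts, the reads kallisto estimates per transcript, summed by the authors to human gene symbols. STAR, kallisto, GRCh37 and GRCm38 are named per the submitters' processing notes, and versions, annotation and RNA selection are not given in the sources used here. Expected counts were rounded, low genes were removed with filterByExpr over the 4 groups, leaving 15836, and all 12 libraries were fitted at once with edgeR 4.0.16 in R 4.3.3 (TMM, robust quasi-likelihood F-test, 2-sided), with Benjamini-Hochberg adjustment over all tested genes and a threshold of 0.05. Fold changes are on the log2 scale, each with its SE. Levels are CPM on TMM-scaled totals. A floor of 3 counts corresponds to between 0.0762 and 0.126 CPM, and library totals ran from 23.8 to 40.9 M. Intervals of pooled low counts are exact binomial (scipy, 95%). The scripts were tested on simulated data with known changes.

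Named with values were, in each class, the 3 members with the most CPM, up to 4 per class and direction with the largest called change, the testis genes, and up to 4 genes of each context list with the smallest p, plus 10 fixed by name. HIST3H2A, HIST4H4, HIST1H1A, FGFR4, FGF19 and the genes that did not pass were named after their values were seen. The members and the lists were chosen with earlier results of these data known. Replicate numbers follow the order of deposit and pair nothing. Alternatives were other scalings, filters, DESeq2 1.42.0, limma 3.58.1 voom, the groups compared alone, single libraries left out and, added after seeing the data, the 3 near-identical pairs summed and 2 libraries left out. Human sequences, coordinates and lengths were not used here.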

Additional observations from a re-analysis of the deposited data

How the results depend on the processing

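Of the counts, sums and medians that answer a comparison, 709 stayed within a set bound over all alternatives and 15 moved. The bound was a fixed ratio for counts, and a count of 0 in both fits was taken as unmoved. For sums and medians it was the SD between tumors, which H3B-6527 replicate 3 widens in its comparisons, so the 709 are a weak measure of stability. Of the values of single genes 1942 kept their direction and side of the threshold, 84 lost and 17 gained a call and 1 changed sign. The count of histone genes that rose was 2 under a filter of 10 counts in total with H3B-6527, with the combination and for the combination against lenvatinib, where HIST1H2BA entered the test through the groups in which it was high, and 0 in the same 3 comparisons under a filter of a mean of 1 CPM, which removes HIST3H3. The count that fell with H3B-6527 was 17 when only the groups compared were fitted, all among the 39 of the full fit, and ran from 14 to 51 with single libraries left out, while the count that rose ran from 1 to 2. In that comparison the median log2 fold change ran from −1.36 to −0.61 for H1 and from −1.19 to −0.40 for H2B, and the log2 ratio of summed H3 CPM from −1.48 to −0.70, over the same libraries. H3F3B changed sign in the combination with upper-quartile scaling, at 0.011. With scaling by library totals the median of all tested genes shifted by −0.12 with H3B-6527, −0.15 with the combination and −0.10 for the combination against lenvatinib, and all-gene calls with H3B-6527 became 3022 higher and 4960 lower, against 3987 and 3842. The same scaling gave 2923 higher and 5339 lower with the combination, against 3924 and 4006, and 2293 and 4348 for the combination against lenvatinib, against 3020 and 3309. No paired analysis was possible because the labels give no replicate numbers, so the groups share none. Genes with few counts, such as HIST3H3 and HIST1H1T, are limited by depth.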
